A study of Mus musculus with 20 samples.

Results

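Apod, the gene of apolipoprotein D, and 6 genes that build, move or take up lipoproteins in brain (Apoe, Clu, Abca1, Abcg1, Lpl and Lrp1) were followed in brains of mice with spinal muscular atrophy (SMA). They are the 7 rows with these gene symbols among the 45700 rows of an expression table. Apod was chosen by its fold change between SMA and control in this same table, so its difference between genotypes is described here without a test. The question put to the other 6 genes was whether they share that rise.

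Brain lipoproteins are made locally, because the particles of the blood do not cross the blood-brain barrier. Astrocytes secrete apolipoprotein E and clusterin (also called apolipoprotein J), the transporters ABCA1 and ABCG1 load cholesterol and phospholipid onto these particles, lipoprotein lipase cleaves the triglycerides that they carry, and LRP1 is an endocytic receptor that takes them into neurons and glia. Apolipoprotein D belongs to the lipocalins, a family of small carriers of hydrophobic molecules. It binds arachidonic acid and progesterone, is made by glia and by cells around vessels, and is known in the nervous system for rising with age, injury and oxidative stress. The liver X receptors (LXR), which pair with retinoid X receptors, are known to switch on Abca1, Abcg1, Apoe and Lpl when sterols accumulate.

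The animals were “Taiwanese” SMA mice on a congenic FVB background, which lack mouse Smn (Smn-/-) and carry the human SMN2 transgene (SMN2tg/0). The controls were Smn-/+ littermates with the same SMN2tg/0 transgene, so every animal carried human SMN2. Whole brains were taken at the early-symptomatic stage, postnatal day 5, from 2 mice per genotype, and at the late-symptomatic stage, postnatal day 7, from 3 mice per genotype. For each replicate number, total cytoplasmic RNA (all fractions of a sucrose gradient) and polysomal RNA (the fractions with several ribosomes per mRNA) were sequenced, which gives 20 libraries in 8 groups. Libraries with the same number, stage and genotype are called 1 mouse here, which the labels do not state. Values are FPKM, fragments scaled by transcript length and by library depth, so levels of different genes can be compared per length. The reads behind a value are not given in the table, and its counting error is unknown. In bulk tissue, fewer cells of a type and less RNA per cell cannot be told apart.

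The Smn1 row did not serve as a check of the genotype labels. It stood at 9.71 and 8.92 FPKM in the early control total libraries and at 9.55 and 10.1 FPKM in the early SMA total libraries. At the late stage it was at 13.6, 14.1 and 16.7 FPKM in control against 11.9, 12.7 and 17.5 FPKM in SMA total RNA. A value for the whole gene takes in transcripts of a disrupted allele and can take in reads of the human transgene, so it says nothing about the allele. The sex read from Xist and Y-linked genes was the same in both libraries of every number. Both early control mice read as male, whereas early SMA mouse 1 read as female and mouse 2 as male, and at the late stage control mice 1 and 2 and SMA mouse 3 read as female and the others as male.

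All 7 genes were expressed in every library, at very different levels. Averaged over the 20 libraries, Apoe was at 1160 FPKM, rank 52 of the 15247 tested genes (those averaging 1 FPKM or more). Clu followed at 99.8 FPKM, Lrp1 at 44.0, Apod at 29.9, Lpl at 21.8, Abca1 at 12.1 and Abcg1 at 6.72 FPKM. The ranges of neighbours in this order over the 20 libraries did not overlap, except that the range of Apod, 10.9 to 67.6 FPKM, took in the whole range of Lrp1 (34.9 to 59.8) and of Lpl (15.9 to 30.3). In the control libraries Apod was below Lrp1 throughout, with a highest value of 26.3 FPKM, whereas in 4 of the 6 late SMA libraries it was above Lrp1.

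Apod lies on chromosome 16 (GRCm38, positions 31296192 to 31314808, minus strand, ENSMUSG00000022548.12). In total RNA of the early stage it was at 12.8 and 14.8 FPKM in control against 20.9 and 31.0 FPKM in SMA. The early polysomal values were 10.9 and 15.3 FPKM in control against 24.2 and 39.0 FPKM in SMA. Every SMA library was thus above every control library of its fraction, and SMA mouse 2 was the higher of the 2 in both fractions. At the late stage, total RNA held 16.8, 17.5 and 21.1 FPKM in control against 53.0, 43.5 and 37.8 FPKM in SMA. Late polysomal RNA held 19.8, 24.2 and 26.3 FPKM in control against 67.6, 55.1 and 47.2 FPKM in SMA. Here too the genotypes did not overlap, and SMA mouse 1 was the highest and mouse 3 the lowest of its group in both fractions.

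**Figure D1:**
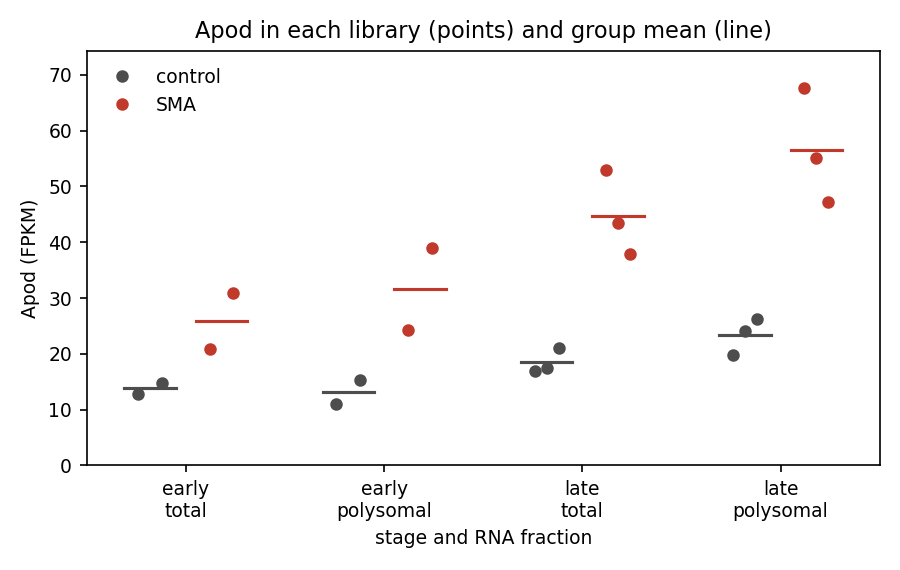
Apod level in FPKM (vertical axis, linear from 0) in each of the 20 libraries, by stage and RNA fraction (horizontal axis). Points are libraries, grey for control and red for SMA, and lines are group means. All SMA libraries sit above the control libraries of their stage and fraction, and the late SMA libraries reach 37.8 to 67.6 FPKM.

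The ratio of the group means of Apod, SMA over control, was 1.88 in early total RNA, 2.41 in early polysomal RNA, and 2.42 in both late total and late polysomal RNA. On the scale of log2(FPKM + 0.1), on which all fold changes below are given, the differences were 0.88 (SE 0.24) and 1.24 (SE 0.33) with 2 mice per genotype, and 1.26 (SE 0.15) and 1.27 (SE 0.17) with 3 mice per genotype. Leaving out 1 mouse at a time left them between 0.60 and 1.58 at the early stage and between 1.13 and 1.39 at the late stage. By sex as read from the libraries, in late total RNA the SMA female was at 37.8 FPKM against 16.8 and 17.5 FPKM in the control females, and the SMA males were at 53.0 and 43.5 FPKM against 21.1 FPKM in the control male. At the early stage no control library read as female. These are the values by which Apod was chosen, and the part of sex in them was not tested.

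The 250 bases before the start of Apod are shown because this is the gene whose level differs most. Those of Apoe and Abca1 are shown for comparison, as the apolipoprotein and the transporter of the group that LXR is known to act on. The sequences are from RefSeq (GRCm38.p6), which matched 4 of the 7 genes in the table used here (Apod, Apoe, Abca1 and Lrp1). All lie on the minus strand and are written 5′ to 3′, at chr16:31314809-31315058, chr7:19699189-19699438 and chr4:53159896-53160145. Capitals mark matches, on either strand, to a TATA box (TATAAA), a GC box (GGGCGG), an E-box (CACGTG), a nuclear receptor hexamer (AGGTCA) or the LXR direct repeat, which is that hexamer 2 times in 1 direction with 4 bases between.
Apod: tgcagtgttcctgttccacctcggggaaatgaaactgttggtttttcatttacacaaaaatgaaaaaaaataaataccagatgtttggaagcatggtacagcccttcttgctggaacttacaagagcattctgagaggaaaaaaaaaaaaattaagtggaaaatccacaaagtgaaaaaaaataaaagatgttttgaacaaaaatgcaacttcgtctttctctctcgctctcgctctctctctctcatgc
Apoe: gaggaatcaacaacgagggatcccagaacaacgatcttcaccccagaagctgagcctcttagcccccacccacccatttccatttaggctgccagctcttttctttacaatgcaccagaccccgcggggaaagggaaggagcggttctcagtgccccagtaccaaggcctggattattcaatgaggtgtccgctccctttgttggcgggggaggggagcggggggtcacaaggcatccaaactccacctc
Abca1: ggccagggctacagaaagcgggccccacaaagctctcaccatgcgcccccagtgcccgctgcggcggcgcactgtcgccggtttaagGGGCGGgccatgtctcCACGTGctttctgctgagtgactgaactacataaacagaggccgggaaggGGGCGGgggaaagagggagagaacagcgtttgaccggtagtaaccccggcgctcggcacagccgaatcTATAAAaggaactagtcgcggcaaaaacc

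The Abca1 window held a TATA box whose first base is 29 bases upstream of the start, GC boxes at 97 and 163 bases and an E-box at 147 bases. The windows of Apod and of this start of Apoe held none of the 5 motifs. RefSeq lists 3 starts of Apoe, and the window of the start at 19698621 held overlapping TATA boxes, on opposite strands, at 96 and 100 bases, whereas that of the start at 19698398 held no match. Among 32817 RefSeq windows of the same length, 12.4% held the TATA box, 32.7% the GC box, 6.02% the E-box, 14% the hexamer and 0.0152% the direct repeat. Only exact letters were searched, so a box or direct repeat that differs in any base was left unmarked, also in the Abca1 window. A missing match says only that these letters are not in the window.

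Apoe, the most abundant apolipoprotein gene of the brain, did not follow Apod at the early stage. It lies on chromosome 7 (19696109 to 19699166, minus strand, ENSMUSG00000002985.13). Early total RNA held 1071 and 1134 FPKM in control against 854 and 1334 FPKM in SMA, and early polysomal RNA held 1766 and 1421 FPKM in control against 1477 and 1677 FPKM in SMA. In total RNA 1 SMA mouse was below and 1 above the controls, and the groups overlapped in both fractions. The log2 fold changes were -0.05 (SE 0.33) and -0.01 (SE 0.37), which leaves an early difference undetermined rather than absent. At the late stage total RNA held 723, 806 and 809 FPKM in control against 1039, 898 and 954 FPKM in SMA, and polysomal RNA held 1075, 1020 and 1040 FPKM in control against 1563, 1244 and 1294 FPKM in SMA. Here the genotypes did not overlap in either fraction. Apoe rose by a log2 fold change of 0.31 (SE 0.09, limma adjusted p = 0.405) in total RNA and 0.38 (SE 0.13, limma adjusted p = 0.428) in polysomal RNA. Both passed the unadjusted threshold of 0.05 that the study used, here called the threshold, but not adjustment over all genes. Without control mouse 1 the late total value was 0.25 and no longer passed. In polysomal RNA, leaving out any 1 mouse but SMA mouse 2 ended the call, with fold changes of 0.28 to 0.42.

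Clu, the gene of clusterin, lies on chromosome 14 (65968483 to 65981548, plus strand, ENSMUSG00000022037.12). Early total RNA held 82.9 and 83.8 FPKM in control against 75.4 and 82.8 FPKM in SMA, and late total RNA held 93.8, 108 and 93.0 FPKM in control against 102, 86.1 and 92.3 FPKM in SMA. The early SMA values lay just below the controls, and at the late stage 2 SMA libraries lay below the controls and 1 among them. The polysomal values were 88.5 and 84.5 FPKM against 86.6 and 105 FPKM early, and 127, 134 and 105 FPKM against 144, 106 and 115 FPKM late, overlapping at both stages. No comparison of the genotypes passed the threshold for Clu, with log2 fold changes of -0.08 (SE 0.07), 0.14 (SE 0.13), -0.07 (SE 0.09) and -0.01 (SE 0.15) in early total, early polysomal, late total and late polysomal RNA.

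Abca1 encodes the transporter that starts a lipoprotein by loading lipid onto apolipoproteins. The gene spans positions 53030787 to 53159895 of chromosome 4, minus strand (ENSMUSG00000015243.4). It was at 10.5 and 11.2 FPKM in control against 13.6 and 12.9 FPKM in SMA in early total RNA. In early polysomal RNA the values were 12.3 and 11.9 FPKM in control against 14.4 and 15.4 FPKM in SMA. The early SMA libraries were higher in both fractions without overlap, by 0.28 (SE 0.09, limma adjusted p = 0.551) and 0.30 (SE 0.09, limma adjusted p = 0.391) on the log2 scale, past the unadjusted threshold in each. At the late stage the groups overlapped, with 9.37, 10.4 and 10.4 FPKM in control against 10.9, 12.3 and 9.47 FPKM in SMA in total RNA, and 12.6, 12.8 and 13.8 FPKM against 13.7, 13.97 and 10.2 FPKM in polysomal RNA. Late SMA mouse 3 was the lowest SMA library in both fractions.

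Abcg1, whose product passes further cholesterol to formed particles, lies on chromosome 17 (31057698 to 31115777, plus strand, ENSMUSG00000024030.6). Its early total values were 5.75 and 5.86 FPKM in control against 7.32 and 7.46 FPKM in SMA, a rise of 0.34 on the log2 scale (SE 0.10, limma adjusted p = 0.551) that passed unadjusted. Early polysomal RNA overlapped, at 6.91 and 6.33 FPKM in control against 6.68 and 7.85 FPKM in SMA. Late total RNA held 6.16, 6.30 and 5.64 FPKM in control against 7.11, 6.53 and 6.50 FPKM in SMA, and late polysomal RNA held 7.20, 6.20 and 5.96 FPKM in control against 7.69, 7.60 and 7.29 FPKM in SMA. All 3 late SMA libraries were above all 3 controls in each fraction, by log2 values of 0.15 (limma adjusted p = 0.595) and 0.22 (limma adjusted p = 0.479), neither of which passed the threshold.

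Lpl encodes lipoprotein lipase. Its locus is on chromosome 8 (68880491 to 68907448, plus strand, ENSMUSG00000015568.13). The early values were 15.9 and 18.8 FPKM in control against 24.7 and 19.2 FPKM in SMA in total RNA, and 16.4 and 19.9 FPKM in control against 23.5 and 23.3 FPKM in SMA in polysomal RNA. SMA was the higher genotype in every early library, with log2 values of 0.33 (SE 0.18, limma adjusted p = 0.553) and 0.37 (SE 0.13, limma adjusted p = 0.401) that did not pass the threshold. Late total RNA held 23.6, 21.1 and 20.1 FPKM in control against 18.5, 21.2 and 18.5 FPKM in SMA, and late polysomal RNA held 30.3, 27.6 and 24.1 FPKM in control against 22.9, 24.6 and 20.9 FPKM in SMA. Most late SMA libraries lay under the controls, but 1 SMA library in each fraction lay among them, and the log2 values of -0.15 (limma adjusted p = 0.63) and -0.26 (limma adjusted p = 0.476) did not pass the threshold.

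Lrp1, the endocytic receptor, is on chromosome 10 (127538161 to 127621148, minus strand, ENSMUSG00000040249.13). It was at 34.9 and 39.3 FPKM in control against 55.0 and 47.7 FPKM in SMA in early total RNA. Early polysomal RNA held 38.2 and 35.4 FPKM in control against 49.6 and 59.8 FPKM in SMA. Lrp1 rose in both, by 0.47 (SE 0.12, limma adjusted p = 0.551) and 0.57 (SE 0.12, limma adjusted p = 0.385) on the log2 scale, past the unadjusted threshold and without overlap. Late total RNA overlapped, at 35.3, 38.1 and 44.3 FPKM in control against 40.8, 50.2 and 37.5 FPKM in SMA, and so did late polysomal RNA, at 42.5, 39.5 and 44.6 FPKM in control against 49.5, 55.8 and 42.1 FPKM in SMA. SMA mouse 2 was the highest library of both late comparisons, with log2 fold changes of 0.12 (SE 0.14) and 0.21 (SE 0.11).

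**Figure D2:**
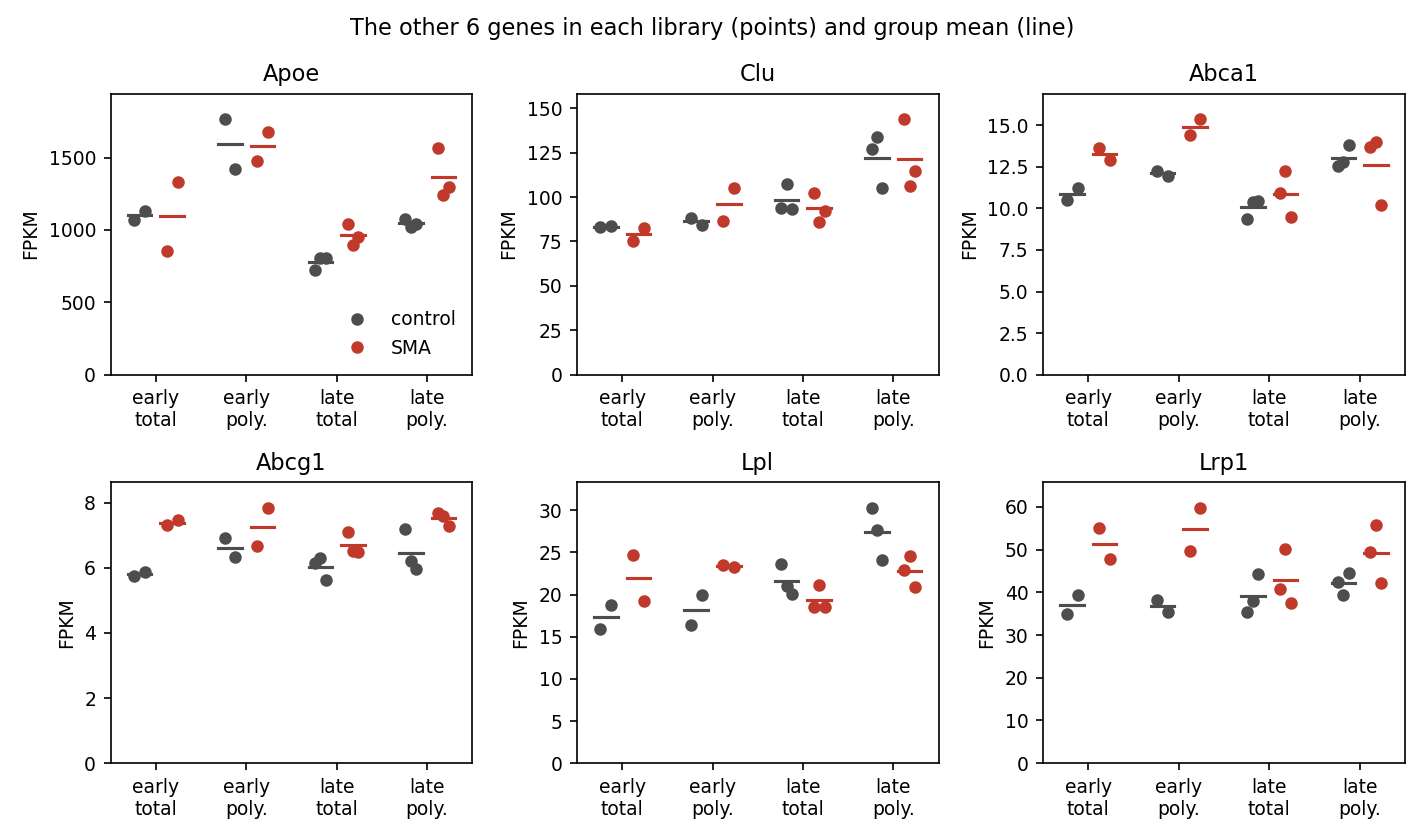
Levels in FPKM (vertical axes, linear from 0, 1 scale per gene) of Apoe, Clu, Abca1, Abcg1, Lpl and Lrp1 in each library, by stage and fraction (total, or polysomal as poly.). Points are libraries, grey for control and red for SMA, and lines are group means. Lrp1, Abca1 and Lpl separate by genotype in both fractions at the early stage only, Apoe at the late stage only, and Abcg1 in every comparison except early polysomal RNA.

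Of the 6 genes other than Apod, 3 passed the unadjusted threshold in early total RNA (Abca1, Abcg1 and Lrp1, all higher), where 8.25% of all 15247 tested genes passed it and 4.36% were higher. In early polysomal RNA it was 2 genes (Abca1 and Lrp1, both higher), against 12.5% of all genes and 5.65% higher. At the late stage 1 gene, Apoe, passed in total RNA and in polysomal RNA, again higher, against 9.54% and 10.7% of all genes and 4.84% and 5.35% higher. Neither early count held when any 1 early library was left out. Such a fit has a group of 1 mouse, whose spread was assumed to equal that of the other group. Abca1 then lay at 0.24 to 0.33 in total and 0.25 to 0.34 in polysomal RNA, and Abcg1 at 0.33 to 0.36 in total RNA. None of the 6 passed in both stages, and none passed after adjustment over all genes, which 0.164%, 0.649%, 0.111% and 0.0918% of all genes did. The median log2 fold change of the 6 was 0.31 in early total RNA, 0.22 in early polysomal RNA, 0.11 in late total RNA and 0.10 in late polysomal RNA, beside medians of 0.013, -0.006, 0 and 0 over all tested genes. Counting Apod, whose choice fixes its own direction, 5 of the 7 genes were higher without overlap in early total RNA, 4 in early polysomal RNA and 3 in each late fraction, where 25.1%, 23.9%, 7.63% and 7.86% of all tested genes were, and Clu was lower without overlap in early total RNA, as were 22.5% of all genes. Without Apod the genes higher without overlap were Abca1, Abcg1, Lpl and Lrp1 in early total and Abca1, Lpl and Lrp1 in early polysomal RNA. In each late fraction they were Apoe and Abcg1. An exact permutation test of a single gene could reach no smaller p than 0.333 with 2 mice per genotype or 0.1 with 3.

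**Figure D3:**
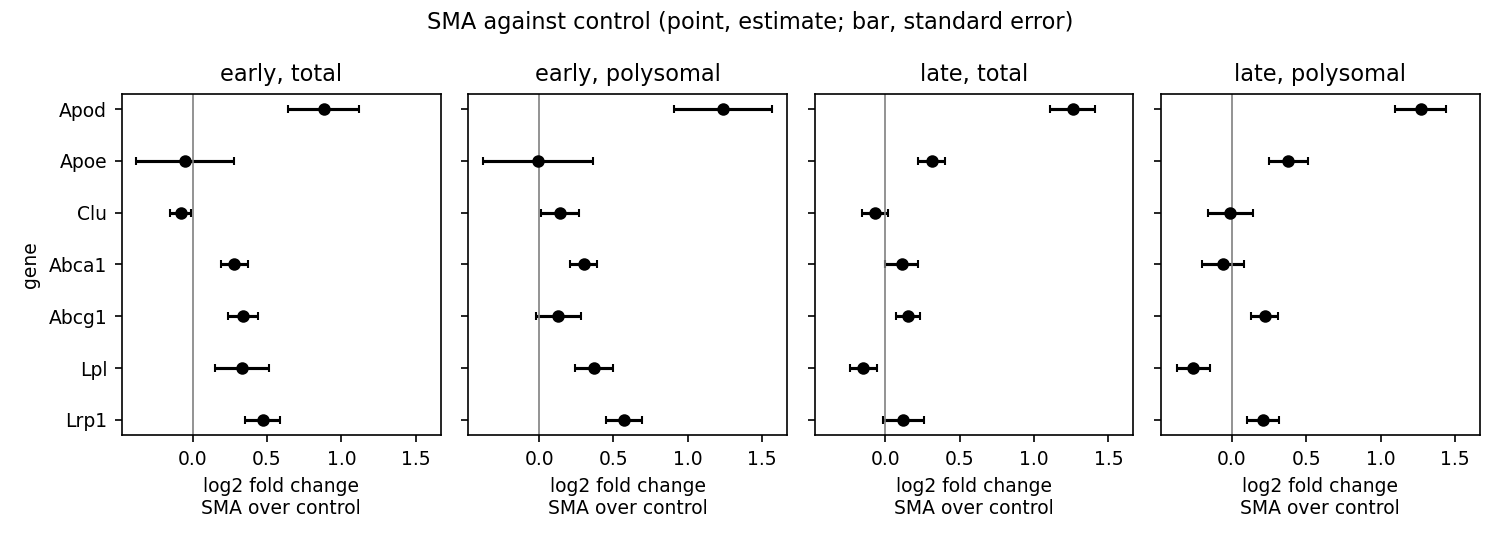
Log2 fold change, SMA over control, of the 7 genes (rows) in the 4 comparisons (panels), on log2(FPKM + 0.1). Points are limma estimates and bars their standard errors, with 2 mice per genotype early and 3 late. Apod, chosen for its fold change in these data, lies at 0.88 to 1.27, and Lrp1 at 0.47 and 0.57 in the early panels and 0.12 and 0.21 in the late ones.

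The early rises of Abca1, Abcg1 and Lrp1 coincided with a dependence of the early fold changes on transcript length. Tested protein-coding genes were divided into 5 groups of equal size by their longest annotated transcript. The median log2 fold change in early total RNA went from -0.234 in the shortest group to 0.196 in the longest, and in early polysomal RNA from -0.237 to 0.176. The late medians stayed between -0.0227 and 0.0253. Lrp1, Abca1 and Abcg1 have transcripts of up to 14888, 10262 and 5832 bases and lie in the longest group, whereas Apoe, Clu and Apod reach 1408, 1810 and 2074 bases. After a length curve had been removed from each library, a step chosen after seeing the data, none of the 6 genes passed in either early fraction. Lrp1 then stood at 0.14 (limma adjusted p = 0.661) and 0.24 (limma adjusted p = 0.546), Abca1 at 0.03 and 0.05, and Abcg1 at 0.20 and 0.03 in early total and polysomal RNA. Lpl, which was higher without overlap in both early fractions but not called, went from 0.33 to 0.28 and from 0.37 to 0.35. Apod, chosen by this difference, stood at 1.00 and 1.36. At the late stage the correction left Apoe at 0.29 and 0.35, both past the unadjusted threshold. In late polysomal RNA Lrp1 (0.26), Abcg1 (0.23) and Lpl (-0.26) then passed it as well, and none of these passed after adjustment.

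**Figure D4:**
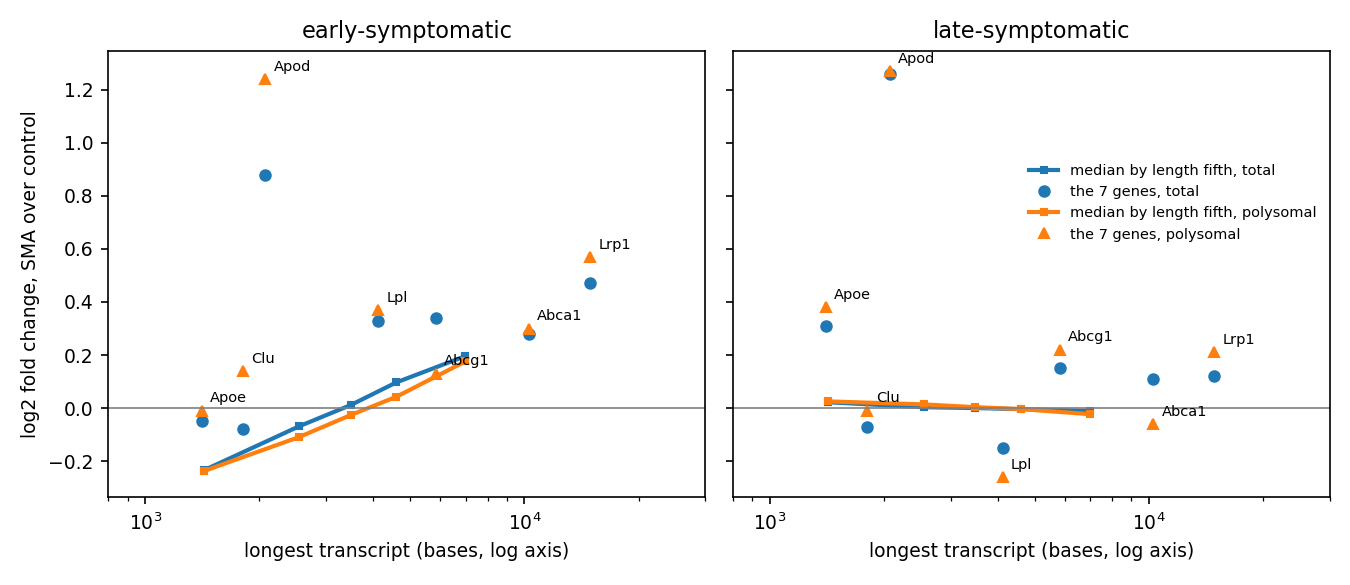
Log2 fold change, SMA over control (vertical axis), against the length of the longest transcript (horizontal log axis, in bases), early stage on the left and late on the right. Lines join the medians of 5 length groups of the tested protein-coding genes, blue for total and orange for polysomal RNA, and circles and triangles are the 7 genes. The early lines climb from -0.234 and -0.237 to 0.196 and 0.176, and the late lines stay near 0.

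Markers of other cell populations also differed between the libraries. The summed FPKM of 6 oligodendrocyte markers, led by Mbp, varied widely between mice of 1 group. In early total RNA it was 161 and 277 in control and 137 and 274 in SMA. In late total RNA it was 153, 379 and 385 in control and 444, 384 and 235 in SMA. Within both genotypes the late total libraries ranked the same by this sum as by Apod, which the late polysomal control libraries (178, 451 and 407) did not, while the genotypes overlapped in the sum and not in Apod, and none of the 6 markers passed in any of the 4 comparisons.

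Astrocyte markers, 7 genes led by Aldoc, summed to 402 and 472 FPKM in control against 549 and 566 FPKM in SMA in early total RNA, and to 518, 576 and 522 FPKM in control against 757, 660 and 602 FPKM in SMA in late total RNA. The SMA sums were higher without overlap in both. Late polysomal RNA also separated, at 700, 672 and 613 FPKM against 918, 850 and 732 FPKM, whereas early polysomal RNA overlapped, at 609 and 563 FPKM against 607 and 702 FPKM. Of the 7 markers, Slc1a2 (0.66) and Aldoc (0.51) rose in early total RNA, none in early polysomal RNA, and Aldoc alone at the late stage (0.77 in total and 0.79 in polysomal RNA), none after adjustment with limma. Choroid plexus markers, led by Ttr, summed to 407, 407 and 378 FPKM in control against 818, 731 and 640 FPKM in SMA in late total RNA, and 3 of the 4 that could be tested (Ttr, Folr1 and Clic6) rose in each late fraction and none in the early ones. Microglia markers, led by C1qa, had 4 of 9 higher and 1 lower in late total RNA, 3 higher in late polysomal RNA, and 1 lower in each early fraction. Higher calls made up 4.36%, 5.65%, 4.84% and 5.35% of all tested genes in early total, early polysomal, late total and late polysomal RNA.

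Markers of vessels and of the fibroblasts around them went the opposite way. Of 5 endothelial markers, led by Cldn5, 5 fell in early total RNA, 4 in early polysomal RNA and 5 in each late fraction, and their late total sum was 41.8 to 55.5 FPKM in control against 23.7 to 27.7 FPKM in SMA. Of 6 pericyte markers, led by Rgs5, the numbers that fell were 4, 3, 6 and 6. In late total RNA the pericyte genes Rgs5 (-1.23, limma adjusted p = 0.0258) and Higd1b (-1.10, limma adjusted p = 0.0189) and the endothelial receptor Tek (-1.65, limma adjusted p = 0.0404) also passed after adjustment. Of 5 fibroblast markers (Dcn, Lum and collagen genes, led by Col1a2) they were 3, 3, 4 and 4, with a late total sum of 97.9 to 101 FPKM in control against 50.4 to 62.5 FPKM in SMA. Lower calls made up 3.89%, 6.82%, 4.7% and 5.38% of all tested genes in the same 4 comparisons. Of 5 neuron markers, Map2 rose in early and in late total RNA, and Tubb3, their most abundant gene, was listed at 0 in both early control polysomal libraries, so its fold change was not used. One of 5 erythroid markers fell in early total RNA (Hba-a2) and another in late polysomal RNA (Hbb-bt). With the length correction the early calls of Slc1a2 (0.38) and Aldoc (0.56) in total RNA held and that of Map2 (0.21) did not, and the endothelial markers that fell were 5 in each early fraction, the pericyte markers 4 and the fibroblast markers 4. The microglia markers then had 2 higher calls in each early fraction. The choroid plexus markers had 1 higher call in early total RNA, and the astrocyte markers 1 in early polysomal RNA. No marker of these lists was at 0 in all libraries, and the part of any of these populations in the level of Apod or the other 6 genes was not tested.

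None of the calls between SMA and control among other genes of lipoprotein handling passed adjustment with limma. Over all tested genes, 4.36%, 5.65%, 4.84% and 5.35% were higher and 3.89%, 6.82%, 4.7% and 5.38% lower unadjusted in early total, early polysomal, late total and late polysomal RNA. The early fold changes of these genes also stand under the dependence on transcript length. With the length correction Pltp (-0.48) and Lrp4 (0.40) in early total and Lipa (-0.60) in early polysomal RNA were still called. Apoo (-0.08) and Sel1l (0.17) in early total and Pltp (-0.24), Lrp8 (0.20) and Sorl1 (0.25) in early polysomal RNA were not. Of 2 other lipocalins tested, 1 was called higher in early total RNA with the correction and 0 without it. Of 15 further genes listed by name as apolipoproteins or lipid transfer proteins, only 6 were expressed enough to be tested. A name such as that of Apoo or Apool does not by itself show a role in lipoprotein handling. Among the blood apolipoproteins Apoa1 averaged 0.759 FPKM and Apob 0.0695 FPKM. Pltp, which transfers phospholipid between particles, fell in all 4 comparisons, by 0.57 and 0.34 in early and 0.25 and 0.41 in late total and polysomal RNA. Apoo fell in early total RNA by 0.30, and Apoc1 rose in late polysomal RNA (0.65). The 6 genes had 0 higher and 2 lower calls in early total RNA, 0 and 1 in early polysomal RNA, 0 and 1 in late total RNA, and 1 and 1 in late polysomal RNA.

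Among the 14 tested receptors and regulators reported here, which are not the full list, 1 rose in early total RNA, 2 in early polysomal RNA, 1 in late total RNA and 3 in late polysomal RNA. Lrp4, the agrin receptor of the neuromuscular synapse, rose in early (0.60) and late (0.34) total RNA, Lrp8, a reelin receptor, and Sorl1, a sorting receptor, in early polysomal RNA (0.34 and 0.51), and Lrp5 (0.30), Lrp12 (0.11) and Scarb1 (0.23) in late polysomal RNA. Of 7 other sterol transporters, only Abcg4 in late total RNA was called between SMA and control, at -0.27.

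Lysosomal lipase Lipa fell in early polysomal RNA by 0.59 and in late total RNA by 0.34, and Sel1l, which is needed for the maturation of lipoprotein lipase, rose in early total RNA (0.33). These were the only calls between SMA and control, in total or polysomal RNA, among 4 tested genes of other lipases and their partners (Lipa, Lmf1, Angptl4 and Sel1l). Of the 5 LXR and RXR receptor genes, Rxra rose in late total RNA (0.29) and Nr1h3, which encodes LXR alpha, fell by 0.64 in late polysomal RNA, with none called at the early stage. Nr1h3 averaged only 1.32 FPKM, close to the filter of 1 FPKM, and its late total values overlapped between genotypes. Ptgds, another lipocalin and a prostaglandin D synthase, rose in late total and late polysomal RNA by 0.78 in each (SE 0.17, limma adjusted p = 0.308, and SE 0.13, limma adjusted p = 0.202), and the retinol carrier Rbp4 fell by 0.27 in late polysomal RNA.

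Genes whose pattern was most like that of Apod were found by the Pearson correlation of log2(FPKM + 0.1) with Apod over the 20 libraries, which share mice, stages and genotypes. Among 15246 genes the closest were Agt (0.956), which encodes angiotensinogen, Ly6a (0.944), Fam107a (0.93), Ptgds (0.921) and Csrp1 (0.912). With the mean of each stage and fraction removed they were Agt (0.973), Paqr8 (0.965), Mertk (0.954), a receptor for uptake of dying cells, Mgp (0.951) and Gstm1 (0.95). The other lipoprotein genes were less alike, at 0.605 for Abcg1, 0.574 for Lrp1, 0.454 for Clu, 0.252 for Abca1, 0.232 for Lpl and 0.155 for Apoe, and at 0.718, 0.689, 0.0953, 0.493, -0.0535 and 0.632 in the same order with the means removed. Agt averaged 11.1 ± 1.55 FPKM in control against 36.0 ± 5.30 FPKM in SMA in late total RNA (SD, n = 3), with log2 fold changes of 1.27, 1.33, 1.69 and 1.83 in early total, early polysomal, late total and late polysomal RNA. Fam107a was the gene with the largest early values among these, 2.19 and 2.05 on the log2 scale. All were picked by likeness to Apod over libraries of both genotypes, so their differences between genotypes follow in part from that choice.

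Translation efficiency (TE), the level in polysomal RNA relative to total RNA, was compared between genotypes as the interaction of genotype and fraction. None of the 7 genes passed the unadjusted threshold at either stage in limma, nor after adjustment, where 2.32% of all genes passed unadjusted early and 2.07% late, and 0.617% and 0.0394% after adjustment. For Apod the change in log2 TE was 0.36 (SE 0.45) early and 0.00 (SE 0.24) late, so its late fold changes in total and polysomal RNA were the same within that error. Apod is counted among the 7, but these values are built from the fold changes by which it was chosen and are a description only. The other 6 genes lay between -0.21 and 0.22 early and between -0.16 and 0.09 late. Total and polysomal libraries of the same late mouse deviated together, and with the mouse as a block the late standard error of Apod was 0.06 with the same value, still 0 of 7 genes passed, and 4.32% of all genes did.

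In control brains the levels of the genes differed between days 5 and 7 in different directions. Both day 5 control mice read as male, whereas day 7 control mice 1 and 2 read as female, so day and sex are partly mixed here. Day and any batch of preparation cannot be told apart either. Apod was higher at day 7 in total RNA by a log2 fold change of 0.42 (SE 0.13, limma adjusted p = 0.0919) and in polysomal RNA by 0.84 (SE 0.21, limma adjusted p = 0.0554), both past the unadjusted threshold. Lpl (0.32 and 0.59) and Clu (0.23 and 0.49) rose as well in total and polysomal RNA. Apoe fell by 0.50 (SE 0.09, limma adjusted p = 0.0332) in total RNA and by 0.60 (SE 0.22, limma adjusted p = 0.119) in polysomal RNA. Thus 4 of 7 genes passed in each fraction, 3 higher and 1 lower, where 40.3% and 42% of all genes passed, 20.1% and 20.7% higher and 20.1% and 21.4% lower. After adjustment only Apoe in total RNA passed, where 21.2% of all genes did in total and 20.6% in polysomal RNA. Abca1, Abcg1 and Lrp1 did not pass in either fraction. With the length correction Apod in total RNA stood at 0.48 and passed adjustment too (limma adjusted p = 0.0453). Abca1 in total RNA then stood at -0.22, past the unadjusted threshold (limma adjusted p = 0.111). Without early control mouse 1 the rise of Apod was 0.31 in total and 0.60 in polysomal RNA, and neither passed, in a fit with a single early library whose spread was assumed to equal that of the late ones. Apod at day 7 in control brains, 16.8 to 26.3 FPKM, was below that of day 5 SMA mouse 2 (31.0 and 39.0 FPKM) and overlapped that of day 5 SMA mouse 1 (20.9 and 24.2 FPKM).

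The fold changes between genotypes were then compared between stages, as the interaction of genotype and stage. Lpl was the only gene of the 7 to pass, moving down by 0.49 on the log2 scale from the early to the late SMA difference in total RNA (interaction -0.49, SE 0.19, limma adjusted p = 0.486) and by 0.63 in polysomal RNA (interaction -0.63, SE 0.17, limma adjusted p = 0.287). Of all genes 10.1% and 13.7% passed, 5.6% and 6.86% downward, and 0.125% and 0.597% after adjustment. Apod gave 0.38 (SE 0.29) in total and 0.02 (SE 0.37) in polysomal RNA, so its late difference could not be distinguished from the early one. Neither could that of Apoe, at 0.35 (SE 0.26) and 0.39 (SE 0.22), nor that of Lrp1, at -0.35 (SE 0.21) and -0.35 (SE 0.18), although each passed at 1 stage only. With the length correction the values of Lrp1 were -0.03 and 0.02, and those of Lpl -0.43 and -0.61, still past the unadjusted threshold.

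The position of the genes on polysomes in control brains was also compared. At day 7 Apoe (0.43, SE 0.08, limma adjusted p = 0.0461), Abca1 (0.37, SE 0.07, limma adjusted p = 0.0452), Lpl (0.34, SE 0.11, limma adjusted p = 0.132) and Clu (0.31, SE 0.11, limma adjusted p = 0.174) were higher in polysomal than in total RNA. They are 4 of 7 genes, where 25.3% of all genes passed and 14.8% were higher in polysomal RNA, and 2 of 7 after adjustment, where 7.12% of all genes passed. Apod was at 0.34 (SE 0.14, limma adjusted p = 0.218), which did not pass, and with the mouse as a block, in which 29.1% of all genes passed, it passed as well (SE 0.06, limma adjusted p = 0.0871). In that fit Apoe (limma adjusted p = 0.0965) and Abca1 (limma adjusted p = 0.0665) no longer passed after adjustment, which left 0 of 7. Abcg1 (0.09) and Lrp1 (0.11) did not pass in either fit. At day 5, with 2 mice, 0 of 7 genes passed in limma before or after adjustment, where 25.9% of all genes passed before and 1.32% after it, and the values ran from -0.09 for Apod to 0.52 (SE 0.28) for Apoe.

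**Figure D5:**
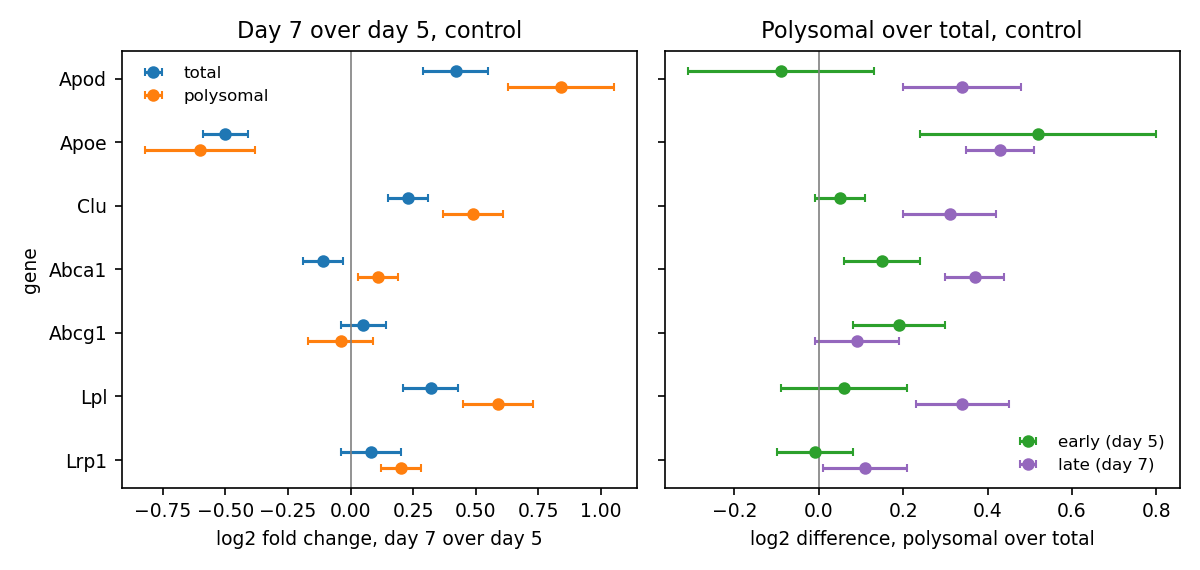
Log2 differences within control brains for the 7 genes (rows), day 7 over day 5 in total and polysomal RNA on the left, and polysomal over total RNA at each stage on the right. Points are limma estimates and bars standard errors, with 2 early and 3 late mice. Apod is the gene with the largest day 7 values on the left (0.42 and 0.84), and Apoe the only one to fall in both fractions.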

How the data were processed

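The authors aligned 100 bp reads of ribosome-depleted, strand-specific libraries to GRCm38.p4 with Tophat (TopHat2 2.0.14 in the submitters' processing notes) and the Gencode M6 annotation, and deposited gene-level FPKM values computed with Cufflinks 2.2.1. Depth limits the precision of each value, but the FPKM table holds no counts. No pair of libraries held identical values.

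Values were analysed as log2(FPKM + 0.1) in R 4.3.3 with limma 3.58.1 (lmFit, eBayes with trend) in 15247 genes (mean FPKM of 1 or more), separately per comparison, and tested on simulated data first. The study called genes at an unadjusted p under 0.05 with CuffDiff and Xtail, which need alignments or counts. That threshold was kept, with Benjamini-Hochberg values over all tested genes beside it. Whether replicates within a group were littermates or processed together is not given in the sources used here, and p-values measure the spread between these mice.

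The members, gene lists and named genes were chosen with earlier results of these data known. Named are the 7 genes, the called genes of the lipoprotein lists (at most 4 a list and comparison), marker lists by count, sum and leading gene, and the 5 genes most correlated with Apod. Some receptor and regulator genes are not reported here. Late libraries of both fractions that carry the same number, and read as the same sex, correlated at 0.173 to 0.447 in their deviations over 13015 genes and were taken as paired. At the early stage the values were 0.0202 and 0.181. Alternatives were other pseudocounts (0.01 and 1), filters, equal medians, a replicate block, 1 shared model, omission of each mouse and, added after seeing the data, a lowess correction (span 0.3) for the longest Gencode M21 transcript, which 98.8% of identifiers matched.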

Additional observations from a re-analysis of the deposited data

Results flagged for a closer look

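Lpl was singled out because its SMA difference passed the unadjusted threshold in the test of genotype by stage. The late minus early value was -0.49 in total RNA (limma adjusted p = 0.486) and -0.63 in polysomal RNA (limma adjusted p = 0.287) on the log2 scale. In polysomal RNA both early SMA libraries lay above both controls and 2 of the 3 late SMA libraries below all 3 controls. The value in total RNA lost its call without any 1 of 6 libraries (early control mouse 1, early SMA mouse 1, late control mice 1 and 2, late SMA mice 1 and 3), at -0.31 to -0.50, and that in polysomal RNA with none of the 10 left out. With the replicate block the value in total RNA lost its call as well (limma adjusted p = 0.536). It was 1 of 7 genes in each fraction, counting Apod, where 10.1% of all genes passed in total and 13.7% in polysomal RNA, so the count is near the share over all genes.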

How the results depend on the processing

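The table gives FPKM of 2 or 3 mice per group, so small differences cannot be resolved and counting error is unknown. Of 1141 comparisons of a gene's log2 value with an alternative, 975 counted as the same, which means direction and call where a test existed. A further 74 lost the call, 30 gained it, 52 counted as changed in sign and 10 with no test as moved. Comparisons with no test were not sorted by sign, so these counts do not hold every sign change. With 1 control mouse left out, Apod on early polysomes went from -0.09 to 0.05 and Lrp1 from -0.01 to 0.13. The direction of Apod in SMA against control was kept in every alternative.

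The number of the 6 genes called in SMA fell from 3 to 0 in early total RNA with a replicate block or length correction. With pseudocount 1 Abca1 (0.26) lost its call there and the number fell to 2. With 1 model Abca1 (0.28) lost that call too, and Lpl gained one in early total (0.33) and early polysomal RNA (0.37). The number fell from 2 to 1 (block) and 0 (length) in early polysomal RNA, and from 1 to 0 in late total RNA with the block or 1 model. In late polysomal RNA it went from 1 to 2 (filter at 5 FPKM), 3 (equal medians, or 1 model) and 4 (length). With the block it stayed at 1, but Apoe lost its call and Lpl (-0.26) gained one. Of 7 genes, 2 instead of 4 were called between days in total RNA with no filter, with the block or with 1 model, 1 instead of 0 on early polysomes with 1 model, and 0 instead of 1 by genotype and stage in total RNA with the block. Same-numbered control and SMA libraries share only a number (correlations of -0.0957 to 0.095), across stages no such correlation was computed, and the cause of these shifts was not tested.

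Some values changed sign. With length correction Apoe became 0.15 and Clu 0.07 in early total RNA and Apoe 0.16 in early polysomal RNA. Between days Lrp1 became -0.08 (total) and -0.12 (polysomal) and Abca1 -0.13 (polysomal), and on early polysomes Clu became -0.03 and Lrp1 0.08. By genotype and stage Clu became -0.15 and Abca1 0.08 (total), and Apod -0.11 and Lrp1, which was -0.35, 0.02 (polysomal). The late TE change of Apod became -0.01 with length correction, with or without the replicate block, and -0.0021 with equal medians, which also put Lrp1 on early polysomes at 0.0032. With the replicate block, Lrp1 between days in total RNA became -0.01 and Abcg1 in polysomal RNA 0.01.

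Leaving out 1 mouse at a time gave 0 to 1 called genes in early total, early polysomal and late total RNA and 0 to 2 in late polysomal RNA, 0 to 3 and 1 to 2 by genotype and stage in total and polysomal RNA, 1 to 4 and 0 to 4 between days, 2 to 4 on late polysomes and 0 to 1 for early TE. Early SMA comparisons then held 1 mouse in a group, whose spread was assumed to equal that of the other group. Leaving out 1 mouse also moved log2 values across 0. In SMA these were Apoe (-0.37 to 0.28 early total, -0.17 to 0.15 early polysomal) and, in late polysomal RNA, Clu (-0.14 to 0.08) and Abca1 (-0.14 to 0.08). In early TE they were Apoe (-0.19 to 0.27), Abca1 (-0.07 to 0.10), Lpl (-0.14 to 0.21) and Lrp1 (-0.14 to 0.33), and in late TE Apod (-0.05 to 0.06) and Clu (-0.01 to 0.12). By genotype and stage they were Apod (-0.32 to 0.36) and Abcg1 (-0.02 to 0.21) in polysomal RNA and Clu (-0.06 to 0.08) in total RNA, and between days Abcg1 (-0.12 to 0.02, polysomal) and Lrp1 (-0.01 to 0.16, total). Leaving out a control mouse from the early polysomal comparison left 1 per fraction and no test, with Apod at -0.23 to 0.05 and Lrp1 at -0.15 to 0.13.

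Over all genes, calls rose without a filter from 1258 to 2907, 1902 to 3539, 1454 to 2295 and 1637 to 2546 in SMA (early total, early polysomal, late total, late polysomal), 354 to 1531 and 315 to 996 for TE, 3947 to 6083 on early polysomes, and 1547 to 2799 and 2084 to 3382 by genotype and stage. With 1 model they were 3013 and 3814 in the early SMA comparisons and 590 for early TE, with the block 728 in early total RNA and 659 for late TE (615 with length correction too), with the filter at 5 FPKM 1088 in late polysomal RNA and 224 and 199 for TE, and with length correction 1016 and 1377 by genotype and stage. Early total RNA ranged from 401 to 4319 calls as mice were left out, the most without SMA mouse 2.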
